A study of Mus musculus with 14 samples.

Results

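The *Slc9a* genes encode sodium-proton exchangers, and 5 of them (*Slc9a3*, *Slc9a5*, *Slc9a7*, *Slc9a8* and *Slc9a9*) are described here in mouse embryonic stem (ES) cells under inhibition of the kinase mTOR (mTORi). The 5 genes are 5 of the 12 SLC9 family genes and of the 54446 gene identifiers that were quantified, and they were taken by name. The set was chosen by the level of *Slc9a7*, whose rise from 0 to 144 h of mTORi in wild-type cells is among the largest in the series. Its values in the untreated and 144 h wild-type libraries are therefore given as a description and are not tested.

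Bulk RNA-seq of total RNA depleted of ribosomal RNA was available for 14 libraries in 7 groups, with 2 replicates in each group. All cells were of the E14 ES line, grown in serum and LIF without feeder cells, and viable single cells were sorted before RNA extraction. Wild-type cells (E14 wild-type, WT below) were sampled without inhibitor (0 h) and after 24, 72 and 144 h in Ink128 (INK128), and the line labelled E14 TET1/2 DKO (DKO below) was collected untreated and after 24 and 72 h. The DKO line was made in the same background with Cas9 and plated as single cells, so differences between DKO and WT are differences between the lines as labelled, and no DKO library was analysed at 144 h. The study describes its experiments as independently repeated, the labels do not tie this to these libraries, and p values measure the spread between 2 libraries per group.

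Values are TPM, a transcript level corrected for length and scaled to a fixed total per library, multiplied by 1 factor per library that restores the normalization to spiked ERCC RNAs. The factors ran from 1 to 2.81, and DKO replicate 1 had a higher factor than DKO replicate 2 at each time (2.81 and 2.38 at 0 h, 2.24 and 1.36 at 24 h, 2.53 and 1.73 at 72 h). *Tet2* separated the lines, at 129 to 210 TPM in WT and 27.1 to 55.0 TPM in DKO libraries. *Tet1* did not, at 344 to 516 TPM in WT and 238 to 602 TPM in DKO libraries. Both genes were targeted with guides in an upstream and a downstream exon, to delete what lies between them. The values here cover the whole gene, so they cannot show whether the part between the guides was lost. The paper screened clones by PCR and checked the knockouts by western blot for TET1 and TET2. DKO below means the libraries labelled so. All 6 ES cell markers were at 1 TPM or more in every group. Their sum in WT was 5110 to 5170 TPM at 0 h, 4030 to 5050 TPM at 24 h, 3590 to 4180 TPM at 72 h and 2710 to 2980 TPM at 144 h. In DKO it was 6080 to 6820 TPM at 0 h, 3370 to 5630 TPM at 24 h and 3790 to 5850 TPM at 72 h. Summed primitive endoderm markers had their highest library in WT at 24 h (94.7 and 215 TPM, the 2 libraries) and were lowest in WT at 144 h (5.73 and 6.0 TPM). A DKO library at 24 h, at 108 TPM, lay between those of WT at 24 h. Summed trophectoderm markers also had their highest library in WT at 24 h (75.3 to 184 TPM) and were lowest in WT at 144 h (14.8 to 16.8 TPM). A DKO library at 0 h reached 90.5 TPM, above the lower WT library at 24 h. Summed fibroblast markers went from 13.6 to 19.6 TPM at 0 h to 4.69 to 9.4 TPM in the treated WT libraries, and in DKO from 32.7 to 43.9 TPM at 0 h to 9.78 to 12.7 TPM at 24 h and 16.0 to 18.3 TPM at 72 h. The summed neuroectoderm and mesendoderm markers stayed between 4.81 and 22.3 TPM. The part of these cell types in the results was not tested. In bulk RNA, a change in the share of a cell type and a change in RNA per cell cannot be told apart.

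SLC9A proteins swap sodium or potassium ions for protons across a membrane and so set the pH on its 2 sides. *Slc9a3* acts at the cell surface, mainly in kidney and gut epithelium. *Slc9a5* is best known from neurons, where its protein cycles between the surface and recycling endosomes. *Slc9a9* encodes an endosomal exchanger, and *Slc9a7* and *Slc9a8* encode exchangers of the Golgi apparatus. These organellar exchangers let protons leak out of compartments that the V-type proton pump acidifies.

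The 5 genes lie on different chromosomes of GRCm38 (mm10), all with 16 or 17 exons in their longest coding transcript. *Slc9a7* (ENSMUSG00000037341.14) spans chrX:20105754-20291807 on the minus strand and encodes 726 residues, and *Slc9a8* (ENSMUSG00000039463.14) spans chr2:167421712-167477000 on the plus strand and encodes 576 residues. *Slc9a5* (ENSMUSG00000014786.8) spans chr8:105348843-105369881 (plus strand, 898 residues), *Slc9a3* (ENSMUSG00000036123.8) chr13:74121457-74169442 (plus strand, 862 residues) and *Slc9a9* (ENSMUSG00000031129.9) chr9:94669909-95230445 (plus strand, 644 residues). *Slc9a7* contains the processed pseudogene *Gm9083* on the opposite strand, which shares 0 exon bases with it and was at 0.308 to 2.82 TPM.

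The promoter sequences of the 5 genes were matched in RefSeq (GRCm38.p6), and 3 are shown because they belong to the member that changed most with time, to the most abundant member and to a member at or near 0 in every library. Each is the 250 bases before the RefSeq start on the gene's strand, 5′ to 3′. Capitals mark GGGCGG (or CCGCCC, the same motif on the other strand) and CACGTG, which reads the same on both strands and is the core of the E-box that factors such as TFE3 bind.
Slc9a7, chrX:20291828-20292077, minus strand: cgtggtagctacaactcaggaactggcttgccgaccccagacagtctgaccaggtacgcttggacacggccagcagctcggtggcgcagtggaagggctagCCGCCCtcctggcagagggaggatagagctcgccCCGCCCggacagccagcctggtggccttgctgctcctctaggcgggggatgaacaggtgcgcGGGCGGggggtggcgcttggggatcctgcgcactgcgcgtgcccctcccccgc
Slc9a8, chr2:167421460-167421709, plus strand: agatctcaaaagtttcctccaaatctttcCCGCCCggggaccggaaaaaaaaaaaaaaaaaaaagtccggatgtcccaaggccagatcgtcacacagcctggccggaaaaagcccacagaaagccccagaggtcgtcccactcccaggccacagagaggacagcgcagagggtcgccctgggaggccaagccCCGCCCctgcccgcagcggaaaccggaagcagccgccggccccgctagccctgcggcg
Slc9a3, chr13:74121163-74121412, plus strand: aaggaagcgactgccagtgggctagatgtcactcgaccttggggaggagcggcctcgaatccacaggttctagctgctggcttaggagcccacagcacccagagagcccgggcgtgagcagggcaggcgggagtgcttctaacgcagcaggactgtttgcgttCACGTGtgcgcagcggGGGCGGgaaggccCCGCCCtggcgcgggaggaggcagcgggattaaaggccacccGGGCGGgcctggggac

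The *Slc9a7* window had a GC content of 69.6% and 19 CpG, against medians of 52.4% and 6 over 32851 RefSeq promoters of the same length. It held GGGCGG 3 times, and 32.7% of all promoters held it at least once. The motif was present 2 times in the *Slc9a8* and *Slc9a5* windows, 3 times in *Slc9a3* and 0 times in *Slc9a9*, whose window had a GC content of 42.8%. CACGTG was found in 1 of the 5 windows, that of *Slc9a3*, against 6.02% of all promoters, and CATGTG in 0 of 5, against 12.3%. *Slc9a3* and *Slc9a9*, the members with the lowest levels, thus had promoters on either side of the median GC content.

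**Figure D1:**
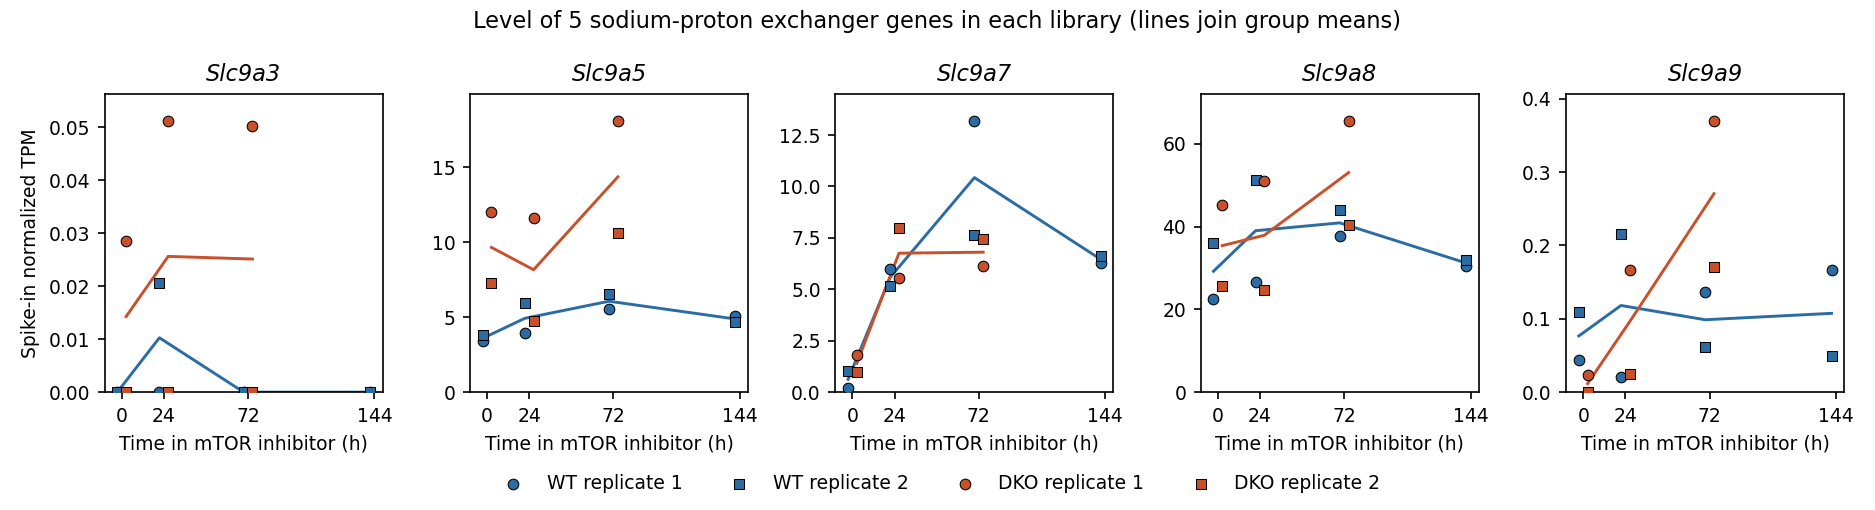
Spike-in normalized TPM (y axis, linear, with its own range in each panel) of the 5 exchanger genes against hours in mTOR inhibitor (x axis), with circles for replicate 1, squares for replicate 2, blue for WT, orange for DKO and lines through the group means. *Slc9a7* is at or below 1.81 TPM in all 0 h libraries and at or above 5.16 TPM in all treated ones, and *Slc9a3* and *Slc9a9* stay under 0.38 TPM.

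*Slc9a7* was low in the untreated libraries of both lines and higher in every treated library. In WT it was at 0.224 and 1.02 TPM at 0 h and at 6.0 and 5.16 TPM at 24 h. At 72 h it stood at 13.2 and 7.66 TPM and at 144 h at 6.27 and 6.64 TPM. The WT libraries at 72 h had the highest mean of the series but lay far apart, and the lower of them was below 1 DKO library at 24 h (7.98 TPM), whereas the 144 h libraries were close to each other and to the 24 h libraries. Relative to 0 h, the fitted log2 fold changes of (TPM + 1) in WT were 2.06 at 24 h, 2.82 at 72 h and 2.25 at 144 h, described only, while the median over all 18232 genes tested was −0.33, −0.33 and −0.83.

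The DKO libraries were not used to choose *Slc9a7*, and there its level can be tested. It was at 1.81 and 0.99 TPM at 0 h, 5.53 and 7.98 TPM at 24 h and 6.15 and 7.46 TPM at 72 h, with no overlap between the untreated and the treated libraries. *Slc9a7* rose by 1.69 on the log2 scale at 24 h (SE 0.37, adjusted p = 0.0045, limma) and by 1.72 at 72 h (SE 0.37, adjusted p = 0.014, limma). In group means these were 4.82-fold and 4.85-fold rises, and the pseudocount of 1 TPM makes the fitted values smaller. Of all genes tested, 19.2% were called in DKO at 24 h and 3.66% at 72 h, and 99.9% and 99.8% had a lower fold change than *Slc9a7*. The call at 24 h was lost without DKO 0 h replicate 2 (log2 fold change 1.45, adjusted p = 0.052, limma), and the call at 72 h without DKO 0 h replicate 2 (1.47, adjusted p = 0.13) or DKO 72 h replicate 2 (1.59, adjusted p = 0.13). The call at 24 h was also lost when those groups alone were fitted (adjusted p = 0.078). The filter on low values used the mean over all libraries, and the untreated DKO libraries had a mean of 1.4 TPM, above its limit of 1 TPM. Without the filter the adjusted p from limma was 0.027 at 24 h and 0.051 at 72 h, so the call at 72 h was lost. With replicate numbers as a block within each line, the adjusted p from limma was 0.00038 at 24 h and 0.0011 at 72 h (SE 0.31). At 72 h that fit called 5.34% of all genes as higher. Summed fibroblast and ES cell markers moved between the same DKO libraries in the opposite direction, with the values given above. Trophectoderm markers overlapped at 24 h and were lower at 72 h (55.1 to 90.5 TPM at 0 h, 34.7 to 45.1 TPM at 72 h). Mesendoderm markers were at 10.2 to 10.4 TPM at 0 h, 7.04 to 10.1 TPM at 24 h and 12.3 to 16.3 TPM at 72 h. Neuroectoderm markers were at 10.5 to 17.1, 4.81 to 7.79 and 10.6 to 15.3 TPM at these times. Primitive endoderm markers overlapped with 0 h at both times.

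From 24 to 72 h *Slc9a7* showed no further change that passed the test, and the step from 72 to 144 h in WT was not tested. In WT its 72 h libraries were above its 24 h libraries, by 0.76 on the log2 scale (SE 0.37, adjusted p = 0.51, limma, unadjusted p = 0.055 in the same limma fit), in a comparison that called 0.987% of genes. This value was 0.4 without WT 72 h replicate 1 and 1.12 without WT 72 h replicate 2. In DKO the 72 h and 24 h libraries overlapped, the log2 fold change was 0.022 (limma SE 0.37, adjusted p = 0.97), and 1.42% of genes were called. The 95% interval of that difference, −0.75 to 0.8, leaves room for a change in either direction.

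*Slc9a7* was not shown to differ between the lines, whose libraries overlapped at 24 h. DKO against WT gave a log2 fold change of 0.22 at 24 h (95% interval −0.55 to 1.0, adjusted p = 1, limma), where 0.0439% of genes were called. At 72 h it gave −0.51 (95% interval −1.29 to 0.26, adjusted p = 0.34, limma), where 0.329% were called. Of all genes, 1.37% had a lower fold change there, and leaving out 1 library at a time moved it between −0.87 and −0.16. The same comparison in TPM as deposited gave −0.8 (adjusted p = 0.21, unadjusted p = 0.04, limma), and with values centred on each library's median −1.02 (adjusted p = 0.24, unadjusted p = 0.035, limma). Both DKO libraries at 72 h (6.15 and 7.46 TPM) lay below both WT libraries (7.66 and 13.2 TPM), and the gap between the nearest libraries was smaller than the spread within WT. At 0 h, a group used in choosing the gene, the lines overlapped.

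Ordered by mean ± SD (n = 2), *Slc9a7* stood at 10.4 ± 3.95 TPM in WT at 72 h, 6.8 ± 0.929 in DKO at 72 h, 6.75 ± 1.73 in DKO at 24 h, 6.45 ± 0.261 in WT at 144 h, 5.58 ± 0.591 in WT at 24 h, 1.4 ± 0.581 in DKO at 0 h and 0.621 ± 0.562 in WT at 0 h. Most neighbours in this order differed by less than the larger of their SDs. For WT at 144 h against 24 h, an exception, a narrow gap separated the libraries (6.27 to 6.64 against 5.16 to 6.0 TPM). WT at 24 h against DKO at 0 h was the wide step between treated and untreated cells. DKO and WT at 0 h also differed by more than either SD, although their libraries overlapped. In TPM as deposited, without the spike-in factor, its rise in DKO was 1.68 at 24 h (adjusted p = 0.0057, limma) and 1.48 at 72 h (adjusted p = 0.012, limma), and 24.9% and 26.3% of genes were called. On that scale the order of the treated groups changed. The means were 6.58 TPM in WT at 72 h, 6.25 in WT at 144 h, 4.18 in DKO at 24 h, 3.48 in WT at 24 h and 3.37 in DKO at 72 h. The log2 fold change in WT from 72 to 144 h was −0.58 on the spike-in scale and −0.039 in TPM as deposited, described only.

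The rise was not seen in the genes next to *Slc9a7*. *Rp2*, which lies 72674 bp beyond its 5′ end, had mean levels of 16.2, 14.6, 10.2 and 7.89 TPM in WT at 0, 24, 72 and 144 h, and 20.5, 18.8 and 16.0 TPM in DKO at 0, 24 and 72 h. *Jade3*, 133881 bp away, was at 48.4 TPM in WT at 0 h and 20.3 TPM at 144 h. On the other side the nearest gene at 1 TPM or more, *Gm26652*, was 867898 bp away and at 1.85 to 4.54 TPM in group means.

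*Slc9a8*, the second Golgi exchanger, was the most abundant of the 5 genes in every library. In WT it was at 22.4 and 36.0 TPM at 0 h, 26.7 and 51.3 TPM at 24 h, 37.8 and 44.0 TPM at 72 h and 30.5 and 31.9 TPM at 144 h. The replicates lay far apart at 0 and 24 h, and the 144 h libraries fell within the range of the 0 h libraries. In DKO it was at 45.1 and 25.7 TPM at 0 h, 51.1 and 24.7 TPM at 24 h and 65.6 and 40.5 TPM at 72 h. Replicate 1, with the larger spike-in factor, was the higher DKO library at each time. In TPM as deposited, without the factor, replicate 1 was also the higher DKO library. There the values were 16.0 and 10.8 TPM at 0 h, 22.9 and 18.2 TPM at 24 h and 25.9 and 23.5 TPM at 72 h. The part of the factors in this spread was not tested.

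*Slc9a8* was called in 0 of the 11 comparisons tested on the spike-in scale. Against 0 h in WT, its log2 fold change at 24 h was 0.37 and at 72 h 0.51 (limma, adjusted p = 0.57 and 0.44). In DKO the values were 0.061 and 0.58 (limma, adjusted p = 0.93 and 0.44), and the SE was 0.39 in each comparison. At an unadjusted p under 0.05 it would also have been called in 0 of 11. The 2 WT comparisons called 9.98% and 8.29% of genes. In TPM as deposited the spread was smaller, and *Slc9a8* passed the test at 72 h in WT (log2 fold change 0.9, SE 0.26, adjusted p = 0.029, limma) and in DKO (0.85, SE 0.26, adjusted p = 0.033, limma). On that scale 24% of all genes were called in the WT comparison and 26.3% in the DKO one. It describes a share of each library's RNA and the spike-in scale an amount, so *Slc9a8* took a larger share of the RNA at 72 h while no change in its amount passed the test. With deposited TPM and replicate numbers as a block within each line, a fit chosen after seeing the data, *Slc9a8* was also called at 24 h. The log2 fold change there was 0.71 in WT (adjusted p = 0.0034, limma) and 0.59 in DKO (adjusted p = 0.0095, limma).

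*Slc9a5*, the exchanger best known from neurons, was low in WT and had higher values in the libraries labelled DKO, a difference that did not pass the test. In WT it was at 3.38 and 3.8 TPM at 0 h, 3.93 and 5.91 TPM at 24 h, 5.57 and 6.55 TPM at 72 h and 5.09 and 4.66 TPM at 144 h. All 6 treated WT libraries lay above both untreated ones, by a small margin at 24 h. In DKO it was at 12.0 and 7.3 TPM at 0 h, 11.6 and 4.72 TPM at 24 h and 18.1 and 10.6 TPM at 72 h.

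Over time *Slc9a5* was not called on the spike-in scale. Its log2 fold change against 0 h was 0.35 (adjusted p = 0.61) at 24 h and 0.62 (adjusted p = 0.35) at 72 h in WT, and −0.29 (adjusted p = 0.63) and 0.52 (adjusted p = 0.51) in DKO, each with SE 0.4. With replicate numbers as a block within each line, *Slc9a5* was called in DKO at 72 h against 24 h (log2 fold change 0.81, SE 0.25, adjusted p = 0.036, limma). That fit called 13.6% of all genes (12.7% as higher), and the median of all genes was 0.37. Without the block *Slc9a5* was not called (SE 0.4, adjusted p = 0.32, limma) unless DKO 24 h replicate 1 was left out (1.38, adjusted p = 0.023, limma). In TPM as deposited it passed the test at 72 h against 0 h in WT (0.85, SE 0.2, adjusted p = 0.011, limma) and in DKO (0.72, SE 0.2, adjusted p = 0.023, limma), where 24% and 26.3% of genes were called.

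Between the lines, the DKO libraries of *Slc9a5* lay above the WT libraries at 0 and 72 h and overlapped with them at 24 h. The log2 fold change was 1.18 at 0 h (95% interval 0.35 to 2.01, adjusted p = 0.42, limma), 0.54 at 24 h (95% interval −0.29 to 1.37, adjusted p = 1, limma) and 1.08 at 72 h (95% interval 0.25 to 1.91, adjusted p = 0.17, limma). None passed the test, although the unadjusted p from limma was 0.0077 at 0 h and 0.013 at 72 h, and 0.0439% of genes passed it at 0 h. For *Slc9a8* the same comparisons gave 0.25, −0.056 and 0.33, with adjusted p of 0.79, 1 and 0.54 (limma). The median over all genes was itself above 0, at 0.29, 0.1 and 0.49.

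The response of the 2 lines was compared directly for *Slc9a5* and *Slc9a8*. The difference of the DKO and WT responses was −0.64 for *Slc9a5* and −0.31 for *Slc9a8* at 24 h, and −0.1 and 0.078 at 72 h, all with adjusted p = 1 (limma). Of all genes, 0.00548% (1 gene) were called for this difference at 24 h and 0% at 72 h. The lowest of these 4 unadjusted limma p was 0.27, for *Slc9a5* at 24 h. For *Slc9a7* the difference includes the untreated WT libraries and was −0.37 at 24 h and −1.1 at 72 h, described only.

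**Figure D2:**
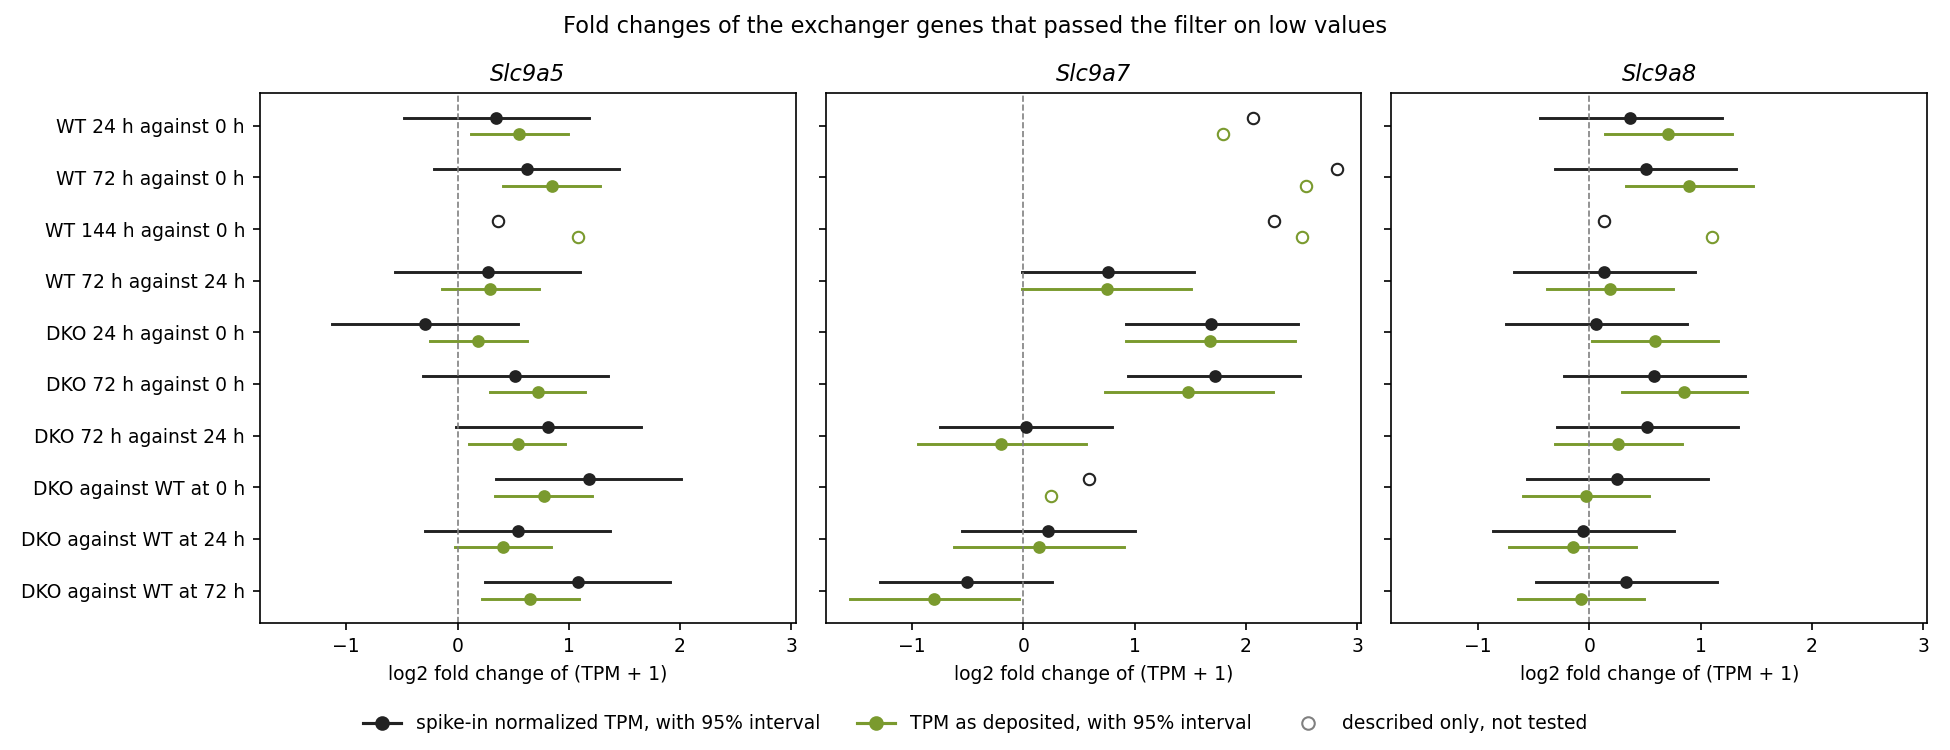
Log2 fold changes of (TPM + 1) on the x axis for the 3 exchanger genes above the filter, by comparison (y axis), on the spike-in scale (black) and in TPM as deposited (green), with lines for 95% intervals and open circles for comparisons described but not tested. The intervals of *Slc9a7* in DKO at 24 and 72 h against 0 h lie above 0 on both scales, and those of *Slc9a5* and *Slc9a8* against 0 h include 0 on the spike-in scale.

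*Slc9a3* and *Slc9a9* were hardly detected. *Slc9a3*, the epithelial surface exchanger, was listed at 0 in 10 of 14 libraries and reached 0.0512 TPM at most, in DKO at 24 h. *Slc9a9*, an endosomal exchanger, was above 0 in 13 of 14 libraries, at 0.0212 to 0.215 TPM in WT and at 0 to 0.37 TPM in DKO. The DKO libraries of *Slc9a9* at 72 h (0.37 and 0.171 TPM) were above those at 0 h (0.0233 and 0 TPM). Both genes were under the filter of a mean of 1 TPM and were not tested. Without the filter, 0 comparisons called either gene, and *Slc9a9* in DKO at 72 h had adjusted p = 0.18 (unadjusted p = 0.014 in the same limma fit).

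At 144 h in WT, the time used in choosing the genes, *Slc9a5* and *Slc9a8* had log2 fold changes of 0.36 and 0.13 against 0 h, described only. In that comparison 50.9% of genes were called, and the median of all genes was −0.83. In TPM as deposited, where that median was 0.055, the fold changes of *Slc9a5* and *Slc9a8* were 1.08 and 1.1 and that of *Slc9a7* was 2.5.

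Among other genes of the SLC9 family, the distantly related *Slc9b1* and *Slc9b2* passed the filter and were not called on the spike-in scale in the 11 comparisons in which members were tested. *Slc9b1* was at 53.4 and 45.1 TPM in WT at 0 h and 32.1 and 35.2 TPM at 144 h, and in DKO at 54.6 and 64.5 TPM at 0 h and 82.5 and 61.9 TPM at 72 h. In TPM as deposited *Slc9b1* passed the test in WT at 72 h against 0 h (0.58 on the log2 scale, adjusted p = 0.045, limma), as did 24% of all genes. With the replicate block within each line, *Slc9b1* (−0.53, adjusted p = 0.048, limma) and *Slc9b2* (−0.69, adjusted p = 0.044, limma) were called lower in WT at 144 h, as were 66.3% of all genes. *Slc9b2* was lower, at 2.03 to 6.68 TPM over all libraries. *Slc9a2* and *Slc9c1* stayed under 0.44 TPM and *Slc9a4* was listed at 0 in all libraries, low levels like those of *Slc9a3* and *Slc9a9*.

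Of the genes that work with or beside the exchangers, a share near that of all genes fell in WT at 144 h. At that time 50.5% of all genes were called lower. Of 10 partners and regulators, 9 were tested, and 4 fell in WT at 144 h, among them *Chp1*, a calcium-binding cofactor of surface exchangers (log2 fold change −1.52, adjusted p = 0.0013, limma), and *Slc9a3r1*, a scaffold that tethers *Slc9a3* protein (−1.2, adjusted p = 0.0026, limma). Of 10 genes of endosome and Golgi ion handling, all were tested and 4 fell at 144 h, led by *Clcn5*, an endosomal chloride-proton exchanger (−2.14, adjusted p = 0.00044, limma). *Clcn5* had also fallen in WT at 72 h (−1.95, adjusted p = 0.0055, limma). Of 17 genes of acid-base transport at the cell surface, 16 were tested and 8 fell in WT at 144 h.

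At 24 h, when 8.73% of all genes fell in WT, 2 of the 16 surface genes did. They were the lactate-proton carriers *Slc16a3* (−3.2, adjusted p = 7.7e-06, limma) and *Slc16a1* (−1.79, adjusted p = 0.00097, limma). Both carriers also fell in DKO at 24 h (−2.95, adjusted p = 8.6e-06, and −1.88, adjusted p = 0.00041, limma). In that comparison 2 partners, 0 endosome and Golgi genes and 4 surface genes fell in all, against 18.7% of all genes.

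The replicate block within each line raised these counts together with those of all genes. In WT at 144 h 6 partners, 9 endosome and Golgi genes and 10 surface genes were then called lower, against 66.3% of all genes, and in DKO at 24 h 4, 6 and 8 of them, against 38.1%. Without the block, none of the 3 lists had a gene called higher against 0 h on the spike-in scale. With it, *Pdzd3* (1.17, adjusted p = 0.034, limma) and *Slc4a2* (0.62, adjusted p = 0.048, limma) were called higher in WT at 24 h, where 4.48% of all genes were, and *Tesc* (0.91, adjusted p = 0.0094, limma) and *Slc4a3* (0.79, adjusted p = 0.02, limma) in WT at 72 h, where 2.85% were. *Slc4a3* was also called higher in DKO at 72 h with the block (1.27, adjusted p = 0.0017, limma), as were 5.34% of all genes. The same fits called 7 of the 16 surface genes lower in WT at 24 h, 7 in WT at 72 h and 6 in DKO at 72 h. They called 1, 1 and 1 partners and 0, 1 and 1 endosome and Golgi genes lower. The median of all genes in these fits was −0.33, −0.33 and −0.12. *Tesc* encodes a calcium-binding protein, *Pdzd3* a scaffold with PDZ domains, and *Slc4a2* and *Slc4a3* chloride-bicarbonate exchangers.

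The medians of the partner, endosome and surface lists at 144 h, −0.83, −0.74 and −0.74, were close to the −0.83 of all genes. In TPM as deposited, 2 partners, 2 endosome and Golgi genes and 3 surface genes were called higher at 144 h, as were 15.6% of all genes, and 1, 1 and 3 were called lower, as were 11.7%. *Clcn5* and *Slc16a1* were lower on both scales at 144 h. *Slc16a3* was called higher at 144 h in TPM as deposited (0.84, adjusted p = 0.0046, limma) and was not called there on the spike-in scale.

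The genes whose 7 group means were most like those of *Slc9a7* were *Arhgef28* (Pearson r = 0.99 over 7 groups of log2(TPM + 1)) and *Gm44921* (0.973), and 27 of 17194 genes compared had r above 0.9. *Arhgef28*, which encodes a guanine nucleotide exchange factor, was at 8.71 TPM in WT at 0 h, 66 TPM at 72 h and 40.6 TPM at 144 h. *Slc9a5* was most like *Fzd3* (0.99), *Foxred2* (0.987) and *Pde5a* (0.984), and *Slc9a8* most like *Gm28941* (0.988), *Cep97* (0.987) and *Gm48562* (0.987). For these 2 members 355 and 283 genes had r above 0.9, more than for *Slc9a7*. All genes of a library share its scaling factor, and r is given as a description.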

How the data were processed

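RNA-seq of 14 mouse ES cell libraries was analysed. The authors trimmed reads with cutadapt 2.4, aligned them to mm10 with STAR 2.7.3a and quantified transcripts with StringTie 2.0 (tools and versions from the submitters' processing notes), using GENCODE release VM19. What the authors deposited is TPM, which sum to a fixed total and keep no counts, so the depth is unknown and no counting error is given. TPM were summed per gene identifier and multiplied by a factor per library, the median ratio of the study's spike-in normalized table to the deposited TPM. Only the first entries of that table were in hand.

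For the 18232 genes averaging 1 TPM or more after spike-in normalization, log2(TPM + 1) was fitted in limma 3.58.1 (R 4.3.3) for all 7 groups, with a mean-variance trend and Benjamini-Hochberg adjustment over all genes tested, and tested on simulated data. The calling threshold was an adjusted p of 0.05. Whether the quantification used strand is not given in the sources used here.

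Replicate numbers were checked through correlations, across genes, of replicate differences: these were over 0.1 in 3 of 3 pairs of groups within DKO and 5 of 6 within WT, and 1 of 12 between the lines. The study states that time points of a replicate were processed in parallel, so the numbers were taken to pair libraries within a line. The main fit left this pairing out, and fits with it as a block are given as alternatives. The members, the gene lists (named by role), the motifs and the alternatives were chosen with earlier results of these data known. Named genes are the members, the other SLC9 genes, up to 4 called genes per list with the largest change and the 3 genes most like each member tested. Some genes under this rule are not reported here. Genes next to *Slc9a7* were added.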

Additional observations from a re-analysis of the deposited data

How the results depend on the processing

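The rise of *Slc9a7* in DKO kept its direction under all alternatives run (pseudocounts of 0.1 and 0.5, filters, no trend, scalings, replicate blocks and each library left out). The number of members called on the spike-in scale was 0 or 1 per comparison. At 24 h against 0 h in WT it went from 0 to 1 with values centred on each library's median and to 2 with deposited TPM and a replicate block within each line (chosen after seeing the data). At 72 h in WT it went from 0 to 2 with deposited TPM, with centred values and with deposited TPM and the block. At 24 h in DKO it went from 1 to 0 with those groups fitted alone and to 2 with deposited TPM and the block. At 72 h in DKO it went from 1 to 3 with deposited TPM, with or without the block, to 2 with centred values and to 0 without a filter. Over all genes, the share called in DKO at 72 h was 3.66% on the spike-in scale, 26.3% with deposited TPM and 28.1% with centred values, and in WT at 72 h 8.29%, 24% and 26.2%. At 72 h against 24 h in DKO the number of members called went from 0 to 1 with the replicate block, on either scale. Leaving out each library gave 0 to 1 in those 3 DKO comparisons, where the library that added a call to the last was DKO 24 h replicate 1 (*Slc9a5*, log2 fold change 1.38, adjusted p = 0.023, limma). In these fits the lone library of a group is assumed to vary like the other groups. The replicate block within each line, or over all libraries, changed no other call of a member on the spike-in scale, while calls over all genes rose (from 258 to 2476 in DKO at 72 h against 24 h, within lines). Most same-numbered pairs of a WT and a DKO group had negative correlations of their replicate differences. With the numbers crossed between the lines, a block picked for those correlations after seeing the data and without a basis in the design, 1 member, *Slc9a5*, was called between the lines at 0 h and at 72 h, against 0 each, while calls over all genes went from 8 to 339 and from 60 to 2217, and no result rests on this block.

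Directions reversed only for values that did not pass the test. With deposited TPM, with centred values and with deposited TPM and the block, *Slc9a5* in DKO at 24 h was 0.18, 0.16 and 0.18, *Slc9a7* in DKO at 72 h against 24 h was −0.2, −0.34 and −0.2, and the *Slc9a8* difference of responses at 72 h was −0.044, −0.12 and −0.044. *Slc9a8* between the lines was −0.029 and −0.058 at 0 h and −0.074 and −0.17 at 72 h with deposited and centred TPM. Leaving out each library moved the fold change across 0 for *Slc9a8* in WT at 24 h against 0 h (−0.088 to 0.83) and 72 h against 24 h (−0.32 to 0.59), in DKO at 24 h (−0.45 to 0.57), between the lines at 0 h (−0.14 to 0.65), 24 h (−0.57 to 0.45) and 72 h (−0.0086 to 0.67), and in the difference of responses at 24 h (−0.82 to 0.2) and 72 h (−0.32 to 0.47). It did so for *Slc9a5* in DKO at 24 h (−0.86 to 0.28), between the lines at 24 h (−0.03 to 1.11) and in the difference of responses at 72 h (−0.46 to 0.26), and for *Slc9a7* in DKO at 72 h against 24 h (−0.21 to 0.25) and between the lines at 24 h (−0.0082 to 0.45). The cause was not tested. With 2 libraries per group and no counts, small changes are hard to tell from spread.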
